A study of Mus musculus with 12 samples.

Results

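Among 18193 genes measured in endothelial cells (ECs) of the mouse lung, 2 genes had their peak at week 2 after tumor cell injection, Lgals2 and Zbtb25. They were selected on the values described here: among probe sets with 1 gene symbol, the one of highest mean over the 12 arrays stood for its gene. Its week 2 mean had to lie at least 0.6 on the log2 scale above the control, week 1 and week 3 means, with every week 2 array above the other 9 arrays and the week 2 mean above 8.13, the median of all values. The week 2 values of the 2 genes are therefore a description, and their comparisons with the other groups carry no test.

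ECs were sorted from whole lungs of NSG mice that were 6 to 8 weeks old at injection, and 3 arrays each were made from healthy age-matched mice (control) and from mice at weeks 1, 2 and 3 after MDA231-LM2 breast cancer cells were injected into the tail vein. NSG mice lack T, B and NK cells, a feature that all 4 groups shared. The sort took CD31-positive cells that were negative for the leukocyte markers CD45 and CD11b, the epithelial marker EpCAM, the stromal markers CD140a and CD140b and the GFP of the cancer cells. The labels call the 3 arrays of a group biological replicates and do not state whether each came from its own animal, so p-values measure the spread between these samples.

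ECs line the inner surface of the vessels of the lung, and circulating cancer cells meet them first when they arrest in the capillaries. Galectins are carbohydrate-binding proteins that bind β-galactosides on glycoproteins at the cell surface and in the matrix. The ZBTB family comprises transcription factors that bind DNA through zinc fingers and contact partner proteins through a BTB domain. Both members of the week 2 group belong to such families, Lgals2 (galectin-2) to the first and Zbtb25 to the second.

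Week 2 was the highest group mean for 3819 of the 18193 genes, yet 11 of these passed the margin of 0.6, 5 of the 11 also had every week 2 array above the other 9, and 2 of those 5 had a week 2 mean above the median of all values. The 2 genes are 0.011% of all genes. With another group in the place of week 2, the same steps left 176 genes for control, 2 for week 1 and 271 for week 3. The largest excess of the week 2 mean over the highest other mean was 0.90, against 2.20 for control, 0.74 for week 1 and 2.39 for week 3. Without any margin, every week 2 array lay above all other arrays for 112 genes, and the same count was 399 for control, 182 for week 1 and 924 for week 3. No test was made of these counts, since the arrays of all groups enter each of them.

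**Figure D1:**
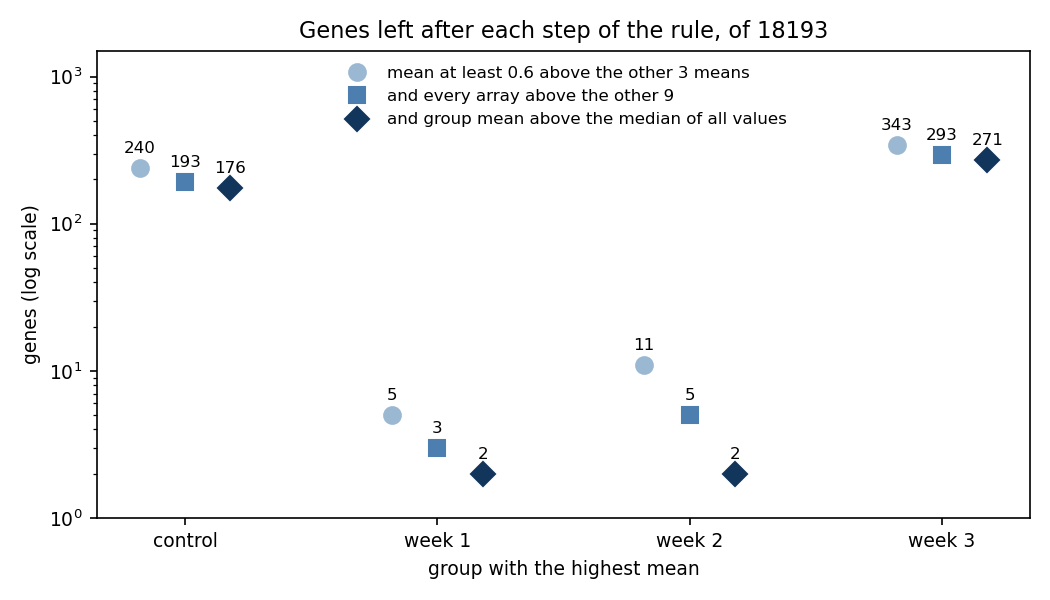
Number of genes (log scale) left after each step, with each of the 4 groups in turn as the group of highest mean. Week 2 fell from 11 genes to 5 and to 2, and week 1 from 5 to 3 and to 2, while 176 genes remained for control and 271 for week 3.

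Lgals2 lies on chromosome 15 at chr15:78850860-78855529 (GRCm38.p6, RefSeq), a protein-coding gene of 4670 bases on the minus strand. Its promoter, the 250 bases before the start of the gene at chr15:78855530-78855779, is shown 5′ to 3′ on the minus strand so that the 2 genes, which were both highest at week 2, can be compared at the sequence level, with the 1 match to a searched motif in capitals.
Lgals2: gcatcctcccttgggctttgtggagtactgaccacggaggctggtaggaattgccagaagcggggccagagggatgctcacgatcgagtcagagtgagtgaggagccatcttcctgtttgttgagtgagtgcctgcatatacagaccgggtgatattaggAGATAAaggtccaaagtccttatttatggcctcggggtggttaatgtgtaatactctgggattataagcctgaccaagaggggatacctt
The capitals mark AGATAA, the core that GATA factors bind, which was present on either strand in 9.99% of 32851 RefSeq promoters of the same length. The GC content of this promoter was 50.8%, near the median of 52.4% over all promoters. A match is a description of the letters and not of binding.

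The log2 signal of Lgals2 was 8.25, 7.95 and 8.26 on the control arrays and 7.92, 7.79 and 8.43 on the week 1 arrays. At week 2 it was 8.89, 8.82 and 8.84, and at week 3 it was 8.26, 8.32 and 7.83. The week 2 arrays lay close together (SD 0.03) and 0.39 above the highest of the other 9, a week 1 array. The other groups overlapped one another, with means of 8.15 ± 0.18 in control, 8.05 ± 0.34 at week 1 and 8.14 ± 0.27 at week 3 (SD, n = 3 arrays each). The week 2 mean of 8.85 exceeded the control mean by 0.70, the week 1 mean by 0.80 and the week 3 mean by 0.71. In level, the gene ranked 8834 of 18193 by its week 2 mean, in the middle of all genes.

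Zbtb25 lies on chromosome 12 at chr12:76348900-76370214 (GRCm38.p6, RefSeq), a protein-coding gene of 21315 bases on the minus strand. The RefSeq promoter table lists 2 starts for it. The 250 bases before the first one listed, at chr12:76369561-76369810, are shown on the minus strand beside the promoter of Lgals2. This window lies inside the annotated span of Zbtb25, whereas that of Lgals2 lies before its gene, so the 2 windows are not alike in position.
Zbtb25: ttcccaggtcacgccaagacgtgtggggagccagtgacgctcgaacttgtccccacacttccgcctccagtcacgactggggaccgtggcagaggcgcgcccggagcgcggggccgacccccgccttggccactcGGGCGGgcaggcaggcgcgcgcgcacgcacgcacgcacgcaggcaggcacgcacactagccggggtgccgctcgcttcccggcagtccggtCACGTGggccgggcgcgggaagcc
The capitals mark GGGCGG, the box bound by SP1, and CACGTG, an E-box of the kind bound by clock factors. On either strand, GGGCGG was present in 32.7% and CACGTG in 6.02% of the 32851 promoters. The GC content was 74.4%, above that of the Lgals2 promoter, and none of the 14 motifs searched was present in both. The other 11, with no match in either window, were GAAANNGAA (interferon-stimulated response element), GGAATTTCC and GGACTTTCC (NF-κB), TGAGTCA (AP-1), TGACGTCA and its part TGACGTNN (cAMP response element), GAANNTTC (heat shock element), TATAAA (core promoter box), CCGGAAGT (ETS), ACANNNTGT (glucocorticoid response element) and CCAAT, which were present in 0.283% to 33.8% of promoters.

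The log2 signal of Zbtb25 was 8.36, 8.50 and 8.26 on the control arrays and 8.79, 8.10 and 8.04 on the week 1 arrays. At week 2 it was 9.07, 8.85 and 9.06, and at week 3 it was 7.57, 8.33 and 7.44. The lowest week 2 array lay 0.05 above the highest of the other 9, the first week 1 array, so the separation rested on a small gap. The means were 8.37 ± 0.12 in control, 8.31 ± 0.42 at week 1, 8.99 ± 0.13 at week 2 and 7.78 ± 0.48 at week 3 (SD, n = 3 arrays each). Week 2 exceeded control by 0.62, week 1 by 0.68 and week 3 by 1.21, and control, week 1 and week 3 overlapped one another. The rank of the week 2 mean was 8487 of 18193.

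**Figure D2:**
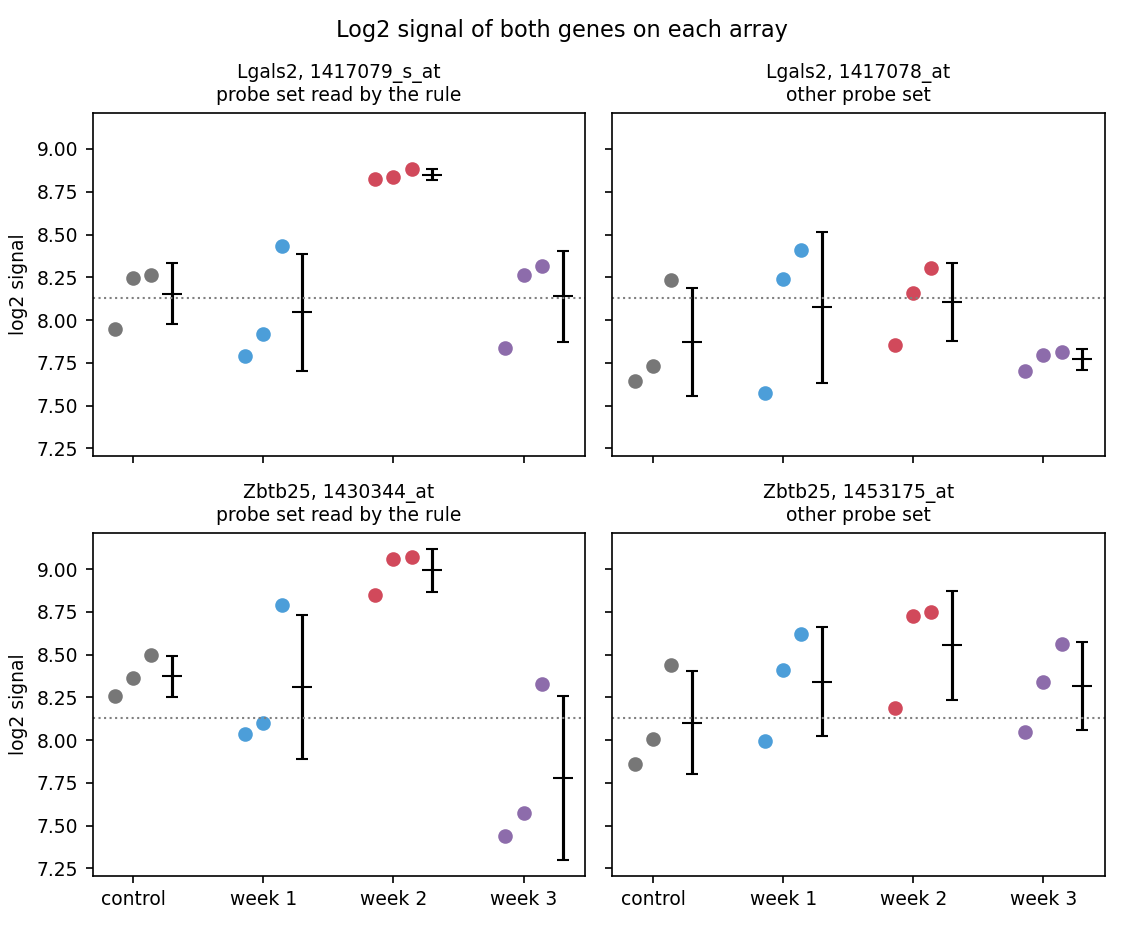
Log2 signal of Lgals2 (top) and Zbtb25 (bottom) on each array by group, for the probe set read by the rule (left) and the other probe set of the gene (right). Points are single arrays in order of their value, bars are the mean ± SD (n = 3), and the dotted line is the median of all values, 8.13. The week 2 points stand above all others on the left and overlap the other groups on the right.

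Each gene has a further probe set that the choice of members did not use, measured on the same arrays. For Lgals2 its signal was 7.73, 7.65 and 8.23 in control, 8.24, 8.41 and 7.57 at week 1, 7.85, 8.30 and 8.16 at week 2 and 7.80, 7.70 and 7.81 at week 3. Here the week 2 mean of 8.10 was 0.03 above that of week 1, and 3 arrays of other groups lay above the lowest week 2 array. Over the 12 arrays the 2 probe sets of Lgals2 had a Pearson's r of 0.01. The probe set that was read, 1417079_s_at, carries the suffix of sets whose probes match more than 1 transcript, and the other, 1417078_at, does not.

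For Zbtb25 the further probe set, 1453175_at, gave 7.86, 8.44 and 8.01 in control, 8.41, 7.99 and 8.62 at week 1, 8.73, 8.75 and 8.19 at week 2 and 8.34, 8.56 and 8.05 at week 3. Week 2 again had the highest mean (8.55), but by 0.21, and 5 arrays of other groups lay above its lowest array. The 2 probe sets correlated with an r of 0.39 over the 12 arrays. Their means over all arrays, which decided which was read, were 8.36 for 1430344_at and 8.33 for 1453175_at. Without the first control array the second had the higher mean, and Zbtb25, then read from it, no longer met the conditions. The probe sets also differed in the order of the groups, since the week 3 mean on the second, 8.32, was above its control mean of 8.10. Averaged over both probe sets of each gene, the week 2 excess was 0.42 for Lgals2 and 0.45 for Zbtb25, which is under the margin for both.

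The comparisons that leave out week 2 were open to a test, limma with Benjamini–Hochberg correction over 45037 probe sets. Neither gene passed an adjusted p of 0.05 in any of the 3 with all arrays. At week 1 against control, Lgals2 differed by -0.11 (SE 0.19, adjusted p = 0.896, limma) and Zbtb25 by -0.06 (SE 0.21, adjusted p = 0.947, limma), where 0.0495% of all genes were called (9 genes). The 95% interval of the difference was -0.56 to 0.34 for Lgals2 and -0.55 to 0.43 for Zbtb25, so differences nearly as large as the margin of 0.6 lay within it. At week 3 against control, where 5.01% of genes were called, Lgals2 differed by -0.01 (SE 0.17, adjusted p = 0.975, limma). For Zbtb25 the log2 difference was -0.59 (SE 0.23), with an unadjusted p of 0.0371 and an adjusted p of 0.209 in limma. Without the second week 3 array, the one at 8.33, it was -0.87 and passed the threshold (adjusted p = 0.0370, limma), and over 15 alternatives it ran from -0.87 to -0.19 with adjusted p-values in limma from 0.0370 to 0.596. Its second probe set differed by 0.22 in the opposite direction (SE 0.19, adjusted p = 0.587, limma). At week 3 against week 1, with 0.841% of genes called, Lgals2 differed by 0.09 (adjusted p = 0.895, limma) and Zbtb25 by -0.53 (adjusted p = 0.498, limma).

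In the comparisons that the selection used, 0.242% of genes were called for week 2 against control (44 genes) and 2.1% for week 2 against week 3 (382 genes). For week 2 against week 1, limma called 0 genes (0%), with a smallest adjusted p of 0.183. Of 18193 genes, 1192 had an unadjusted p below 0.05 in limma, a count not corrected for the number of genes tested. These shares are given as background, and the 2 genes were not tested in these comparisons.

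Beyond the 2 members, 9 genes had a week 2 mean at least 0.6 above the other 3 means. They and the genes of the following paragraphs were picked after their values were seen. Of the 9, 3 met the condition on separate arrays and missed the one on level: Slc9a7, a sodium and proton exchanger of internal membranes, with the largest excess of all genes (0.90), 6030442K20Rik (0.71) and Zfp354b, a zinc-finger gene (0.69). Their week 2 means lay 0.34, 0.42 and 0.93 below the median of all values. Another 3 met the level and had an overlapping array: Trim69, a ubiquitin ligase of the TRIM family (0.84), Slx1b, an endonuclease subunit of DNA repair (0.81), and Rskr (0.81). For Trim69 the lowest week 2 array was 0.01 under the highest control array, 8.29 against 8.30. The remaining 3 missed both conditions, Cldn19, a tight junction claudin (0.66), Lhfpl5 (0.63) and Erich6 (0.62). In 10 of the 11 genes past the margin the week 2 mean was under 9, and in Slx1b it was 9.79.

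**Figure D3:**
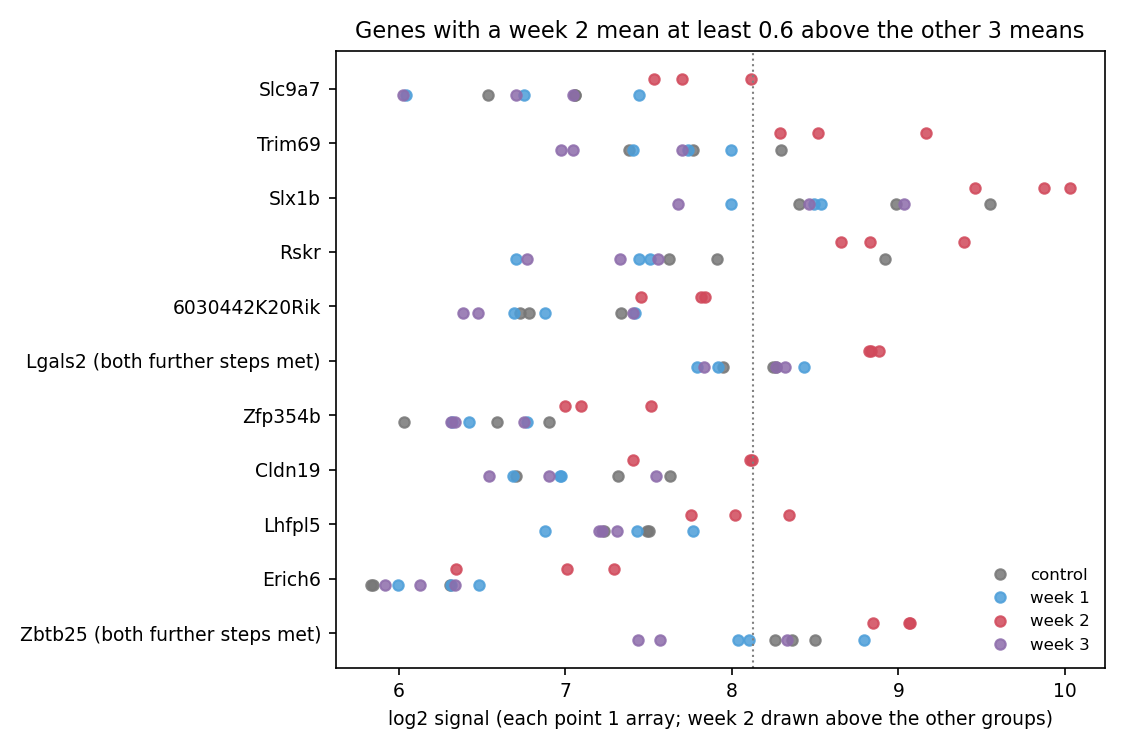
Log2 signal on each array for the 11 genes whose week 2 mean was at least 0.6 above the other 3 means, ordered by that excess. Points are single arrays, with week 2 drawn above the other groups, and the dotted line is the median of all values, 8.13. Of the 11, 5 have all week 2 points to the right of every other point, and in Lgals2 and Zbtb25 the week 2 mean is also above the line.

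Of these 11 genes, 5 had further probe sets, 6 in all. None of the 6 reached the margin, and in 1 of them, a second probe set of Slx1b with an excess of 0.59, every week 2 array lay above the other 9. Just inside the margin stood Zbtb25 at 0.62, with Lgals2 at 0.70. Just outside it, with both other conditions met, were Fam78b (0.57), Tesc, which encodes the calcium-binding protein tescalcin (0.55), and Dand5, a secreted antagonist of the TGF-β family (0.51). Fam78b had a week 2 mean of 10.98 against 10.14 in control, 10.41 at week 1 and 10.35 at week 3, the highest week 2 level among these.

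**Figure D4:**
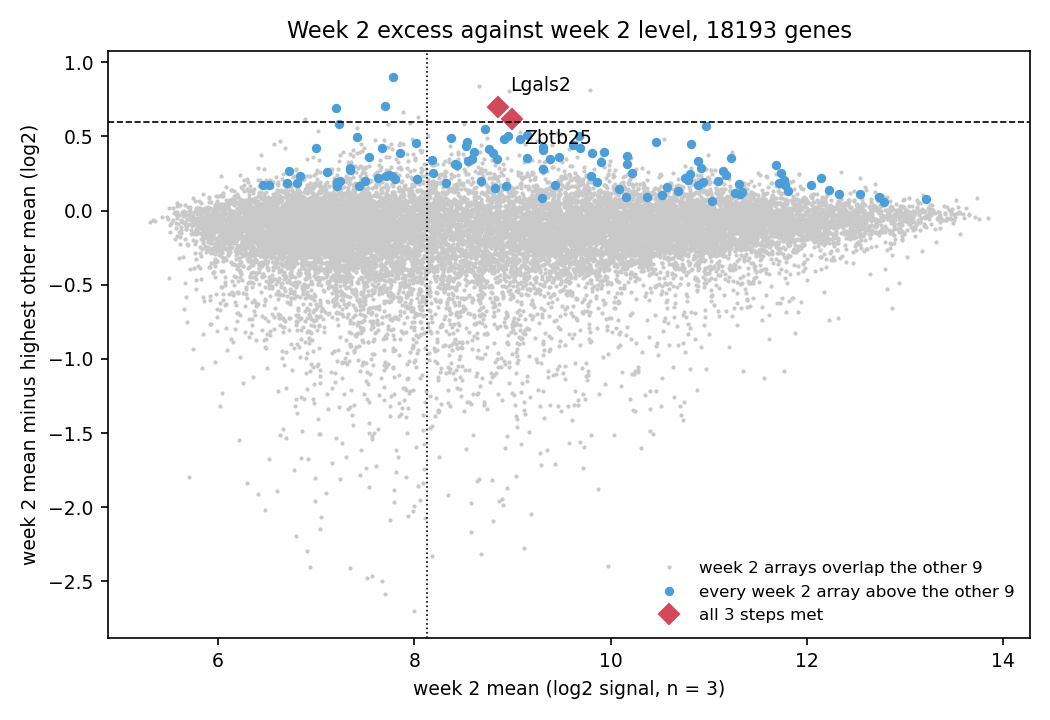
Week 2 mean minus the highest of the other 3 means (log2) against the week 2 mean (log2 signal, n = 3 arrays) for 18193 genes. The dashed line is the margin of 0.6, the dotted line the median of all values, 8.13, and blue points are genes whose 3 week 2 arrays all lay above the other 9. The 2 members, Lgals2 at 0.70 and Zbtb25 at 0.62, sit just above the dashed line.

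Of the other members of both families, none had every week 2 array above the other 9. Of 8 galectin genes measured, week 2 was the highest mean in 4, against 21.0% of all genes, and Lgals2 had the largest excess (0.70). Lgals7 came next with an excess of 0.32 (8.69 at week 2, between 8.24 and 8.37 in the other groups). The galectins of highest signal were Lgals9, with means of 11.92 in control, 12.37 at week 1, 12.32 at week 2 and 12.51 at week 3, and Lgals8, with means between 11.84 and 11.94 and its lowest at week 2. Lgals1 had means of 10.84 in control, 10.44 at week 1, 10.28 at week 2 and 11.34 at week 3, and Lgals3 had 9.29, 8.51, 8.51 and 9.59 in the same order. The median difference of week 2 from control was 0.17 over the 8 galectins, 0.02 over 39 ZBTB genes and 0.03 over all genes. Among the 39 ZBTB genes, week 2 was highest in 11, against 21.0% of all genes. Zbtb16, which encodes PLZF, came next after Zbtb25 by excess (0.21).

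The genes next to the members on their chromosomes showed no excess near theirs. Within 50 kb of Lgals2, 4 genes were measured, and the largest excess was that of Sh3bp1 (0.06). Cdc42ep1, an effector of CDC42 whose annotation overlaps that of Lgals2, had means of 11.71 in control, 12.12 at week 1, 12.01 at week 2 and 11.99 at week 3. Within 50 kb of Zbtb25, 6 genes were measured. Zbtb1, a ZBTB gene whose annotation overlaps that of Zbtb25, stayed between 9.40 and 9.58 in the 4 group means. The long noncoding RNA 4930426I24Rik had an excess of 0.35 at a low level (6.90 at week 2, and 6.42 to 6.55 in the other groups). Akap5 had means of 9.73 in control, 8.76 at week 1, 9.04 at week 2 and 8.08 at week 3. Hspa2 had 9.44, 9.04, 9.26 and 8.50 in the same order, so both were highest in control and lowest at week 3. Mthfd1 and Ppp1r36 were highest at week 3.

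By Pearson's r over the 12 arrays, which share the week 2 step that chose the members, the patterns most like that of Lgals2 were H1f8 (0.87), Slfn5 (0.86) and Pigf (0.85). Those most like Zbtb25 were Cul5, a cullin of ubiquitin ligases (0.92), Pak4, a kinase (0.91), and Ankrd33b (0.90). Of the first of each, H1f8 had means of 8.20 in control, 8.00 at week 1, 8.61 at week 2 and 8.22 at week 3, and Cul5 had 10.02, 10.17, 10.34 and 9.87 in the same order, and neither reached the margin. Lgals2 and Zbtb25 had an r of 0.61 with each other, which put Zbtb25 at rank 297 of 18192 genes by likeness to Lgals2 and Lgals2 at rank 826 by likeness to Zbtb25.

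Neither member is on any of 43 lists of pathway, cell type and tissue dissociation genes. The lists hold 755 measured genes, of which 0 passed the margin. The largest week 2 excess on them was 0.45, for Per1, a clock gene that glucocorticoids induce. Week 2 was the highest mean in 5 of 19 clock genes (26.3%), 8 of 18 genes of the glucocorticoid response (44.4%) and 3 of 21 pan-endothelial genes (14.3%), against 21.0% of all genes. The list with the largest share was that of T, NK and B lymphocytes, cells that NSG mice lack, with 8 of 16 genes (50.0%) and a median difference of week 2 from control of 0.11. In bulk samples, fewer cells of a type and less RNA per cell cannot be told apart.

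Markers of alveolar cells, fibroblasts and mural cells were lower than in control at week 2, and in mean signal already at week 1. In the remaining non-endothelial lists, the median difference of week 2 from control ran from -0.42 (10 pan-leukocyte genes) to 0.11 (16 lymphocyte genes). The median difference of week 2 from control was -1.01 over 11 alveolar type 2 genes, -0.92 over 14 fibroblast genes, -0.62 over 14 mural cell genes and -0.58 over 10 alveolar type 1 genes, and no test was made of these lists. From week 1 to week 2 the same medians were 0.24, -0.16, -0.05 and 0.26. The mean log2 signal of the fibroblast genes was 11.42 to 11.50 on the control arrays, 10.73 to 10.80 at week 1, 10.32 to 10.70 at week 2 and 10.61 to 10.79 at week 3. For 9 lymphatic endothelial genes it was lowest at week 2, at 10.02 to 10.19, against 10.35 to 10.60 in control, 10.37 to 10.60 at week 1 and 10.33 to 10.51 at week 3. Pdgfra and Pdgfrb encode the sorted-out antigens CD140a and CD140b. Pdgfra had means of 11.91 in control, 10.42 at week 1, 10.31 at week 2 and 9.66 at week 3, and Pdgfrb had 10.27, 8.59, 9.15 and 9.35 in the same order. Pecam1, which encodes CD31, was between 13.40 and 13.53 on all 12 arrays. Ptprc, which encodes CD45, had means of 8.84 in control, 8.19 at week 1, 8.43 at week 2 and 9.24 at week 3. Within week 2 it ran from 7.72 to 9.07. Itgam (CD11b) had means of 7.19, 6.84, 6.63 and 6.95, and Epcam had 7.47, 7.18, 7.36 and 7.09, in the same order of groups. The 3′ minus 5′ signal of Gapdh, a measure of RNA integrity, was 0.52 ± 0.16 in control and 0.47 ± 0.06 at week 1. It was 0.35 ± 0.05 at week 2 and 0.31 ± 0.08 at week 3. The week 2 arrays (0.30 to 0.41) lay below all week 1 arrays (0.42 to 0.53) and overlapped those of control and week 3. The part of these differences in the values of Lgals2 and Zbtb25 was not tested.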

How the data were processed

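ECs were profiled on Affymetrix mouse genome arrays (12 arrays, 3 per group). The deposited log2 values, 1 signal per probe set and array, had been made by the authors with background correction, quantile normalization and robust multiarray averaging, and were used as deposited. Array controls (64 of 45101 probe sets) were set aside. Of the 45037 others, 34945 carry 1 gene symbol in the platform annotation, 932 several and 9160 none, which gave 18193 genes, 9010 of them with more than 1 probe set. The number of arrays limits the precision.

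Pairs of groups were compared with limma 3.58.1 in R 4.3.3 (default empirical Bayes settings, Benjamini–Hochberg over all 45037 probe sets, threshold 0.05), and the fit was tested on simulated data. Other steps ran in Python 3.11.15. All members were named, and other genes where a result turned on them. The members and the lists were chosen with earlier results of these data known. Motifs were searched on both strands of the 250 bases before each start in the RefSeq promoter table; the build of the array annotation is not given in the sources used here.

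Arrays with the same replicate number were not taken as pairs, since over 18 such pairs their deviations from the mean of the group had correlations of -0.10 to 0.06. Alternatives were another choice of probe set, margin or level, renewed normalization, a filter on low signal, all groups in 1 fit, a replicate block, array weights, a trended variance and each array left out in turn.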

Additional observations from a re-analysis of the deposited data

Results flagged for a closer look

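Zbtb25 was above the control mean of 8.37 on every week 2 array and below it on every week 3 array, on the probe set that was read. The week 3 and control arrays still overlapped, with a week 3 array at 8.33 above a control array at 8.26. The mean log2 difference from control was 0.62 at week 2 and -0.59 at week 3, so that week 2 and week 3 differed by 1.21. This difference was not tested, because it served to choose the gene. The second probe set of Zbtb25 differed from control by 0.45 at week 2 and by 0.22 at week 3, both upward.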

How the results depend on the processing

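The number of genes with a peak at week 2 depended on the choices behind it. It was 2 after quantile normalization was repeated, after centring on array medians and without probe sets with _x_at and _s_at suffixes, where Atxn2 took the place of Lgals2. It was 0 with the mean of the probe sets of a gene, 7 with a margin of 0.5, 0 with a margin of 0.8 and 5 with no condition on level. With each array left out in turn it ran from 1 to 12: 12 without week 2 replicate 2, 9 without week 2 replicate 1, 6 without control replicate 3, and 1 without week 2 replicate 3 or week 1 replicate 3. Lgals2 met the conditions in 10 and Zbtb25 in 6 of these 12 settings. The cause was not tested.

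Of the comparisons without week 2, the number of the 2 genes called was 0 under every alternative for week 1 against control and week 3 against week 1, and 0 to 1 for week 3 against control with an array left out. The small differences of Lgals2 changed sign. For week 1 against control it was 0.20 without _x_at and _s_at probe sets, 0.0487 with the mean of probe sets and -0.30 to 0.0215 with an array left out. For week 3 against control it ran from -0.12 to 0.14 with an array left out. For week 3 against week 1 it was -0.30 without these probe sets, -0.11 with the mean and -0.0358 to 0.29 with an array left out. For Zbtb25 at week 1 against control it was 0.0879 with the mean of probe sets, 0.0221 with array weights and -0.30 to 0.0739 with an array left out.

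The replicate block, which the pairing check gives no ground for, called 0 of the 2 genes in each comparison and changed neither gene's difference. Over all genes it called 0 in place of 9 for week 1 against control, 378 in place of 912 for week 3 against control and 3 in place of 153 for week 3 against week 1. Over all other alternatives these counts ran from 0 to 188, 330 to 1426 and 0 to 530.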
